A study of Mus musculus with 6 samples.

Results

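Transcripts of 10 heat shock protein genes were measured in mouse liver: Hspa1a, Hspa1b, Hspa8, Hsph1, Dnajb1, Hsp90aa1, Hsp90ab1, Hspb1, Hspd1 and Hspe1. The genes were chosen by name, as the main cytosolic and mitochondrial chaperones that cells make more of in heat shock, and the estimated counts of all transcripts of each gene were added up in every library. They are 10 of the 35082 genes in the data, and all 10 were among the 12497 genes abundant enough to be tested. The libraries came from the livers of 6 male mice. All were fed a high-fat diet for 20 weeks, starting when they were 8 weeks old. The 3 control mice had the genotype G3BP1f/f, in which both copies of the gene carry loxP sites and no Cre is present. The titles of their samples call them wild-type. The other 3 mice had the genotype Alb-cre; G3BP1f/f. They carried the same floxed alleles together with Cre recombinase driven by the hepatocyte promoter of albumin. Deletion was thus directed at hepatocytes by design, and liver cells without Cre keep the gene. There was no group on ordinary chow and no heat-shocked group.

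Heat shock proteins are chaperones that bind unfolded or newly made proteins and help them fold. HSP70 proteins take up a substrate with ATP, J-domain proteins (HSP40) deliver it and start ATP cleavage, HSP110 proteins exchange the nucleotide, HSP90 completes the folding of client kinases and receptors, small heat shock proteins hold unfolded protein without ATP, and HSP60 with HSP10 forms the folding chamber of mitochondria. In heat and other protein stress the factor HSF1 binds repeats of the bases GAA and TTC before these genes and turns them on. In liver, several of them also follow the daily rhythm of body temperature. G3BP1, the gene deleted by design, is a core protein of stress granules, the bodies in which cells gather mRNA and protein during heat and other stress.

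The HSF1 recognition repeats are shown because they are the sequence that the inducible members are known to share. The RefSeq promoter windows used (GRCm38.p6, 250 bases before to 50 bases after each annotated start) covered 7 of the 10 genes in 10 windows. Hspa8, Hsp90aa1 and Hsp90ab1 were not matched. Capitals mark the repeats, and each stretch reads 5′ to 3′ on the strand of its gene.
Hspa1a, chr17:34972242-34972271, minus strand: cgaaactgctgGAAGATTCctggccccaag
Hspa1b, chr17:34959324-34959353, minus strand: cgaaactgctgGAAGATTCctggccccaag
Hsph1, before the start, chr5:149636351-149636380, minus strand: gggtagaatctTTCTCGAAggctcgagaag
Hsph1, after the start, chr5:149636279-149636308, minus strand: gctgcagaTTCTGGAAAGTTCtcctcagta
Hspb1, chr5:135887801-135887830, plus strand: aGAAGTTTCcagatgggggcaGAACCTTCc
Hspd1, chr1:55088053-55088082, minus strand: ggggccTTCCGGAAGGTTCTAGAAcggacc
Hspe1, chr1:55088053-55088082, plus strand: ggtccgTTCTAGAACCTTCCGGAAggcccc

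A repeat of 2 units, GAANNTTC or TTCNNGAA, was found in the windows of 6 of the 7 genes, all but Dnajb1. Both forms read the same on either strand. Counted by window, either form was present in 7 of the 10 windows, against 15.1% of all 32851 windows. A repeat of 3 units, GAANNTTCNNGAA or its reverse complement TTCNNGAANNTTC, which contains both forms of 2 units, was found for Hsph1, Hspd1 and Hspe1. Counted by window, it was present in 4 of the 10, against 0.603% of all windows. These windows are not separate sites: both Hsph1 windows hold the same one, and Hspd1 and Hspe1 share one. Only 1 of the 2 Hspd1 windows holds it. The 2-unit repeat lay 104 to 97 bases before the start in both Hspa1a and Hspa1b, whose 250 bases of upstream sequence differed at 3 positions. Hspd1 and Hspe1 are neighbours that are read in opposite directions from a common stretch of chromosome 1, and the printed bases of one are the reverse complement of the other, 89 to 72 bases before the start of Hspe1. These matches describe the letters in the windows and were not tested for binding.

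The libraries held 20899135 to 21750007 estimated counts. G3bp1 itself, the targeted gene, measured 44.1, 34.8 and 40.5 CPM (read counts relative to the depth of the library, scaled with TMM factors) in the controls against 44.0, 30.0 and 31.5 CPM in the Alb-cre group, given here and throughout in the order of replicates 1, 2 and 3. It was not detectably lower (log2 difference -0.18, edgeR adjusted p = 0.91), so that group is called knockout-labelled here. Mitochondrially encoded genes took 7.22% to 7.64% of counts in the controls against 7.57%, 9.19% and 10.16% in the knockout-labelled libraries. Transcripts with any count were 36.3% of those listed in knockout-labelled replicate 2, 37.8% in replicate 3 and 30.2% to 31.2% elsewhere. The median effective length listed for the shortest transcripts was 3.5 bases in knockout-labelled replicate 1 and 100 bases in every other library. No source used here states why, and the reason was not tested. Liver identity was checked with 11 hepatocyte markers, of which 6 were above 0 and 5 below, with a median log2 difference of 0.03 and a summed level of 118900 to 151111 CPM in controls and 76833 to 133539 CPM in knockout-labelled libraries. Of 12 markers of Kupffer cells and macrophages, all 12 were below 0 with a median of -0.61 and none passed the test. Their summed level was 283 to 922 CPM in controls and 290 to 410 CPM in knockout-labelled libraries, and no marker was near 0 in every library. All 5 red blood cell markers were also below 0 (median -0.97), at a summed 727 to 1678 CPM in controls and 438 to 1106 CPM in knockout-labelled libraries, none near 0 in every library. The 4 tested markers each of neutrophils and of cholangiocytes had medians of -0.67 and -0.47, with overlapping groups. The part of these cell types in the results was not tested. None of 6 striated muscle markers was abundant enough to be tested. In whole tissue, fewer cells of a type and less RNA per cell cannot be told apart.

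None of the 10 genes passed the test between the groups, an edgeR quasi-likelihood fit over 12497 genes with Benjamini-Hochberg adjustment at 0.05. That test called 0.00% of all genes, so the members' count of 0 matched the background. Without adjustment, Hspa1b lay above 0 at p under 0.05, as did 2.65% of all genes, and Hspe1 lay below 0 at that level, as did 1.90% of all genes. DESeq2 called 11 genes, or 0.0880%, and none of the 10. The groups did not overlap in 1 of the 10, Hspa1b, against 9.33% of all genes. The log2 difference was below 0 in 6 members and above 0 in 4, where 48.4% of all genes lay below 0. The members' median was -0.06 and that of all tested genes 0.01. Scaling by library totals alone shifted the median of all genes by 0.26 and that of the members to 0.20, with 3 members below 0, and 6 members still below the median of all genes. The 10 genes thus had no common direction, and their single values are given below by role.

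**Figure D1:**
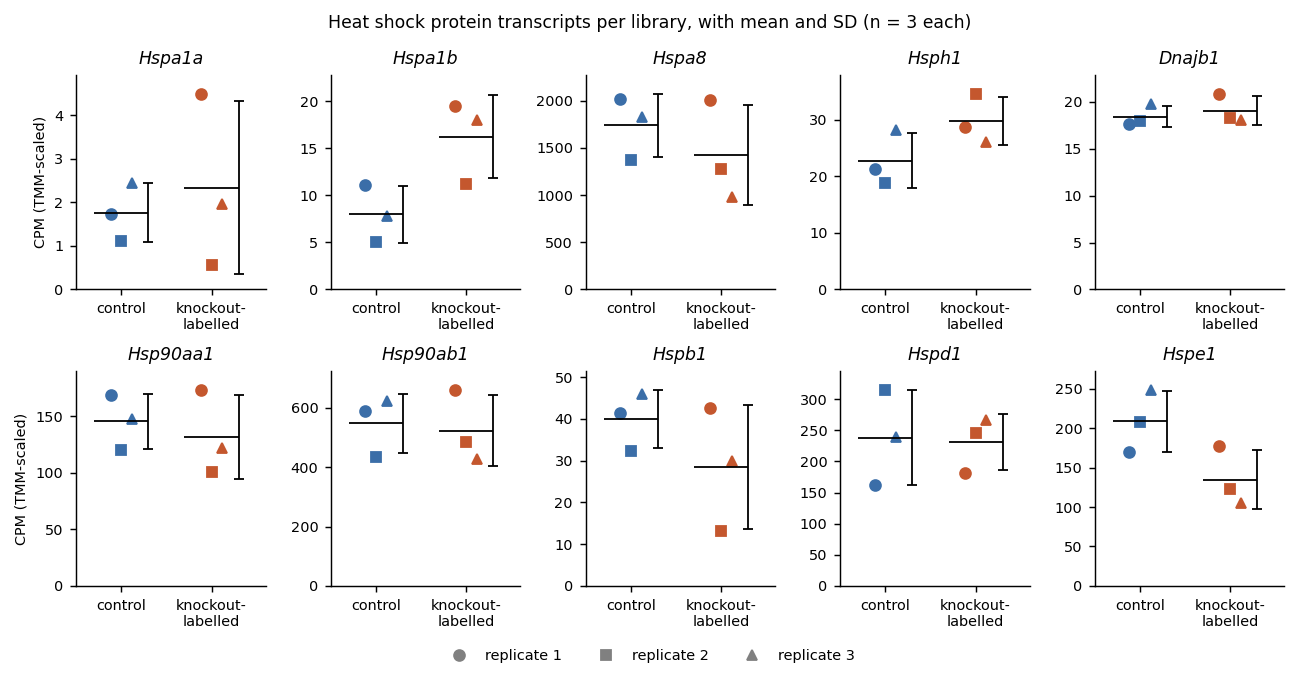
TMM-scaled CPM (vertical axis, linear from 0) of each gene in the 3 control (blue) and 3 knockout-labelled (orange) libraries, with symbols for the replicate number, horizontal lines for means and bars for SD. Hspa1b is the one panel in which the groups do not overlap, from 5.07 to 11.1 CPM in controls and from 11.2 to 19.5 CPM in knockout-labelled libraries.

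**Figure D2:**
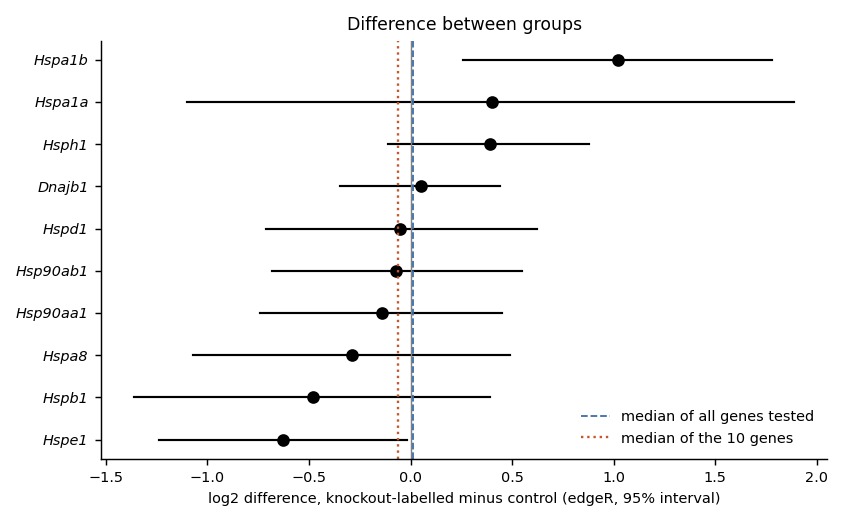
Log2 difference, knockout-labelled minus control, from edgeR with its 95% interval for each gene, with the median of the 10 genes (-0.06, dotted) and of all tested genes (0.01, dashed). Only the intervals of Hspa1b (0.26 to 1.78) and Hspe1 (-1.24 to -0.02) leave out 0, before any adjustment for the number of genes.

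The inducible HSP70 genes Hspa1a and Hspa1b (chromosome 17, 34969190 to 34972156 and 34956436 to 34959238, GRCm38) encode nearly the same protein, which is scarce in resting cells and made in quantity after heat shock. Hspa1b measured 11.1, 5.07 and 7.79 CPM in the controls against 19.5, 11.2 and 18.0 CPM in the knockout-labelled libraries. All 3 knockout-labelled libraries were above all 3 controls, although the lowest of them, at 11.2 CPM, barely exceeded the highest control, at 11.1 CPM. Group means were 8.00 ± 3.04 and 16.3 ± 4.44 CPM (SD, n = 3 each). The fitted difference was 1.02 on the log2 scale (SE 0.33, 2.03-fold), and it did not pass the test (edgeR adjusted p = 0.84). Behind these levels stood 209, 93 and 163 estimated counts in the controls against 453, 253 and 430 in the knockout-labelled libraries.

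Hspa1a was the lowest of the 10 genes. It measured 1.74, 1.11 and 2.45 CPM in the controls against 4.49, 0.564 and 1.97 CPM in the knockout-labelled libraries. Knockout-labelled replicates 1 and 2 were the highest and the lowest of all 6, so the groups overlapped fully, and the difference of 0.40 had a 95% interval from -1.10 to 1.89 (edgeR adjusted p = 0.94). It rested on 13 to 104 estimated counts per library. Without knockout-labelled replicate 1 the difference was -0.48.

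The coding sequences of Hspa1a and Hspa1b are identical at 99.4% of 1926 aligned positions, so the division of reads between them is uncertain. The ratio of Hspa1b to Hspa1a in deposited TPM (a share of the library's transcripts that accounts for length) was 6.83, 4.85 and 3.38 in the controls against 4.63, 21.2 and 9.75 in the knockout-labelled libraries. Summed, the pair measured 12.9, 6.19 and 10.2 CPM in the controls against 24.0, 11.8 and 20.0 CPM in the knockout-labelled libraries. The sums overlapped, since control replicate 1 stood above knockout-labelled replicate 2. The summed difference was 0.93 on the log2 scale (SE 0.34, 95% interval 0.14 to 1.71), which did not pass the test either (edgeR adjusted p = 0.84).

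Hspa8 (chromosome 9, 40800984 to 40810087) encodes the constitutive HSP70, HSC70, and was the most abundant member. It measured 2020, 1374 and 1824 CPM in the controls against 2008, 1280 and 979 CPM in the knockout-labelled libraries. Knockout-labelled replicate 1 was close to the highest control, while replicates 2 and 3 were below every control. The difference of -0.29 (SE 0.34, 95% interval -1.07 to 0.49) did not pass the test (edgeR adjusted p = 0.91). It was -0.63 without knockout-labelled replicate 1 and -0.08 without knockout-labelled replicate 3. The ratio of Hspa8 to Hspa1b in deposited TPM was 260, 375 and 325 in the controls against 147, 156 and 76.2 in the knockout-labelled libraries, so that the constitutive form outweighed Hspa1b in every library and the ratio was lower in all 3 knockout-labelled ones. This ratio was computed after the single values were known and has no test.

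Neither HSP70 partner, Hsph1 or Dnajb1, passed the test. Hsph1 (chromosome 5, 149614287 to 149636376), the inducible HSP110 that acts as a nucleotide exchange factor, measured 21.3, 18.8 and 28.2 CPM in the controls against 28.7, 34.5 and 26.1 CPM in the knockout-labelled libraries. Control replicate 3 lay inside the knockout-labelled range. The difference was 0.39 (SE 0.22, 95% interval -0.11 to 0.88, edgeR adjusted p = 0.84). Dnajb1 (chromosome 8, 83608193 to 83612653), the main inducible J-domain protein, measured 17.6, 17.9 and 19.7 CPM in the controls against 20.8, 18.3 and 18.0 CPM in the knockout-labelled libraries. Dnajb1 was the steadiest of the 10, with a within-group SD of 0.10 on the log2 scale, where Hspa1a had 1.06. Its difference of 0.05 had a 95% interval from -0.35 to 0.44 (edgeR adjusted p = 0.97).

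The cytosolic HSP90 genes had differences near 0 with wide intervals. Hsp90aa1 (chromosome 12, 110690605 to 110702728), the inducible form, measured 169, 120 and 148 CPM in the controls against 173, 101 and 122 CPM in the knockout-labelled libraries, a difference of -0.14 (SE 0.26, 95% interval -0.74 to 0.45, edgeR adjusted p = 0.94). Hsp90ab1 (chromosome 17, 45567775 to 45573271), the constitutive form, measured 589, 436 and 622 CPM in the controls against 659, 486 and 427 CPM in the knockout-labelled libraries, a difference of -0.07 (SE 0.27, 95% interval -0.68 to 0.55, edgeR adjusted p = 0.97). Knockout-labelled replicate 1 was the highest library for both genes. In deposited TPM the constitutive gene stood above the inducible one in all 6 libraries, with ratios from 4.02 to 5.73, and both ends of that range were knockout-labelled libraries. The coding sequences of the pair are identical at 75.6% of aligned positions.

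Hspb1 (chromosome 5, 135887919 to 135889563), the small heat shock protein HSP27 of other species and HSP25 of mouse, measured 41.4, 32.4 and 46.0 CPM in the controls against 42.6, 13.1 and 29.9 CPM in the knockout-labelled libraries. Knockout-labelled replicate 2 stood far below the others, and replicate 1 lay within the controls. The difference was -0.48 (SE 0.38, 95% interval -1.36 to 0.39, edgeR adjusted p = 0.86), and it was -0.14 without knockout-labelled replicate 2 and -0.89 without knockout-labelled replicate 1.

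The mitochondrial chaperonin Hspd1 (HSP60; chromosome 1, 55077835 to 55088243) and its lid Hspe1 (HSP10; chromosome 1, 55088132 to 55091307) share the start region printed above and differed in their pattern over the libraries. Hspe1 measured 170, 208 and 248 CPM in the controls against 177, 123 and 105 CPM in the knockout-labelled libraries. Knockout-labelled replicates 2 and 3 were below every control and replicate 1 was above the lowest control. The difference was -0.63 (SE 0.27, 95% interval -1.24 to -0.02), which did not pass the test (edgeR adjusted p = 0.84). Hspd1 measured 162, 314 and 239 CPM in the controls against 181, 246 and 266 CPM in the knockout-labelled libraries. The lowest and the highest library were both controls, and the difference was -0.05 (SE 0.29, 95% interval -0.71 to 0.62, edgeR adjusted p = 0.98).

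The ratio of Hspd1 to Hspe1 in deposited TPM was 0.232, 0.364 and 0.234 in the controls against 0.247, 0.483 and 0.617 in the knockout-labelled libraries. It was highest in knockout-labelled replicates 2 and 3, and in replicate 1 it lay within the controls. Hspe1 and Hspb1 are the shortest members, at 775 and 904 bases. The 614 tested genes of 700 to 1000 bases had a median log2 difference of -0.38, and their median deviation from the mean of 6 libraries was -0.29 in knockout-labelled replicate 2, -0.44 in replicate 3 and 0.14 to 0.26 elsewhere. The 5156 genes of 2000 to 4000 bases had a median difference of 0.06. After removal of the trend over length and base composition within each library, the difference was -0.24 for Hspe1, -0.06 for Hspb1 and 0.97 for Hspa1b. Hspd1 and Hspe1 also have 5 and 6 annotated pseudogenes, whose reads cannot always be told from theirs. With the counts of these pseudogenes added, the difference was -0.04 for Hspd1 and -0.63 for Hspe1.

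**Figure D3:**
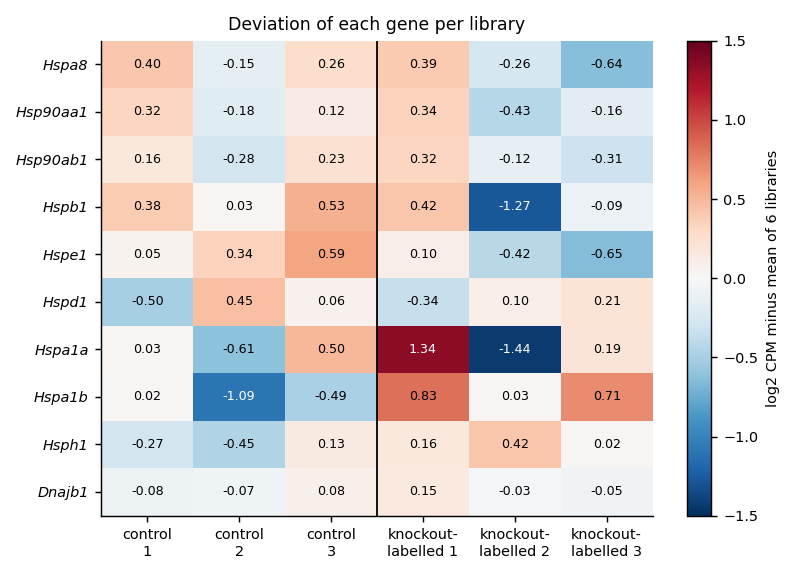
Log2 CPM of each gene (rows) in each library (columns) minus its mean over the 6 libraries, printed in the cell and shown by colour, with the line separating controls from knockout-labelled libraries. Hspa8, Hsp90aa1 and Hsp90ab1 are above their means in control replicates 1 and 3 and knockout-labelled replicate 1, and below them in the other 3 libraries.

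Much of the variation among the 10 genes followed single libraries and crossed the groups. Hspa8, Hsp90aa1 and Hsp90ab1 were all above their means in control replicates 1 and 3 and in knockout-labelled replicate 1, and all below them in the other 3 libraries. Hspd1 was lowest in control replicate 1, by -0.50 log2 units from its mean, and next lowest in knockout-labelled replicate 1, by -0.34, where those 3 genes were high. Hspa1b was lowest in control replicate 2, by -1.09, and highest in knockout-labelled replicate 1, by 0.83. The median deviation of the 10 genes was 0.04, -0.17 and 0.18 in the controls against 0.33, -0.19 and -0.07 in the knockout-labelled libraries, so the highest and the lowest library were both knockout-labelled.

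On the length-scaled TPM scale, the mean levels over 6 libraries ran from 658 for Hspa8 through 247 for Hspe1, 183 for Hsp90ab1, 84.9 for Hspd1, 39.9 for Hsp90aa1, 39.7 for Hspb1, 9.48 for Hsph1, 5.38 for Dnajb1 and 3.81 for Hspa1b to 0.586 for Hspa1a. The ranges of neighbours in this order did not overlap between Hspa8 and Hspe1, between Hsp90ab1 and Hspd1, and between Hspb1 and Hsph1. Within a library, the higher of each pair of neighbours was higher in all 6 except for Dnajb1 over Hspa1b, in 5 of 6, and Hsp90aa1 over Hspb1, in 3 of 6. The levels of Hsp90aa1 and Hspb1 were therefore not separable. The constitutive and mitochondrial chaperones were thus the abundant ones in these livers, and the strictly inducible HSP70 genes the scarcest.

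The reads of Hspa8, Hsph1, Dnajb1 and Hsp90aa1 were divided among their transcripts very differently from library to library. For Hspa8, the transcripts Hspa8-202 and Hspa8-201 differ in the first exon and in a coding segment of 57 bases (19 residues) at chr9:40802739-40802795, plus strand, which Hspa8-201 alone has. It is shown because the share of Hspa8 reads that the quantifier assigned to the transcript holding it varied widely between libraries.
Hspa8-201 segment: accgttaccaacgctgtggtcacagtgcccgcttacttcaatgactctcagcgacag
Hspa8-201 took 1.66%, 33.1% and 22.0% of the gene's estimated counts in the controls against 3.41%, 51.1% and 52.2% in the knockout-labelled libraries. Knockout-labelled replicates 2 and 3 were the highest, and control replicate 1 and knockout-labelled replicate 1 were both near 0. Hspa8-202 took 97.9%, 65.6% and 77.6% in the controls against 96.1%, 46.2% and 41.6% in the knockout-labelled libraries. Hspa8-202 holds no base that Hspa8-201 lacks, so the quantifier had to divide the reads over the shared bases. Reads over the bases that Hspa8-201 alone holds, or over the junctions of either form, were not examined. The shares are therefore estimates and do not show which form prevailed.

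For Hsph1, transcript Hsph1-211 holds a 132-base exon (44 residues) at chr5:149623465-149623596, minus strand, that Hsph1-201 skips. Its inclusion separates the long α and short β forms of the HSP110 protein, and it is shown for that reason.
Hsph1-211 exon: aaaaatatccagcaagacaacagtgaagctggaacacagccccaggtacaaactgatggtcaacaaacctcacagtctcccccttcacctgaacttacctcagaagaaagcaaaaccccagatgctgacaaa
Hsph1-201, which lacks it, took 74.7%, 0% and 41.2% of counts in the controls against 65.3%, 0% and 17.8% in the knockout-labelled libraries. Hsph1-211 took 24.0%, 90.9% and 47.3% in the controls against 33.0%, 86.0% and 53.7% in the knockout-labelled libraries. Replicates of the same group thus differed by nearly the whole range, and a listed share of 0% is an estimate by the quantifier.

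Dnajb1 has a pair of transcripts with different first exons. Dnajb1-202 took 85.6%, 5.95% and 25.6% of counts in the controls against 77.2%, 0% and 1.82% in the knockout-labelled libraries, so control replicate 1 and knockout-labelled replicate 1 again stood apart from the other 4. Hsp90aa1-202, with a longer 3′ end and another first exon than Hsp90aa1-201, took 9.22%, 20.3% and 13.2% in the controls against 48.7%, 17.4% and 23.1% in the knockout-labelled libraries. Here knockout-labelled replicate 1 alone was high. The share of the leading transcript ranged over 85.6 percentage points across libraries for Dnajb1, 67.0 for Hsph1, 56.3 for Hspa8 and 39.5 for Hsp90aa1, where the median over 8868 genes was 14.8. Smaller ranges were found in 94.2%, 89.1%, 84.5% and 74.2% of those genes. The part of the differing effective lengths of knockout-labelled replicate 1 in these shares was not tested.

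**Figure D4:**
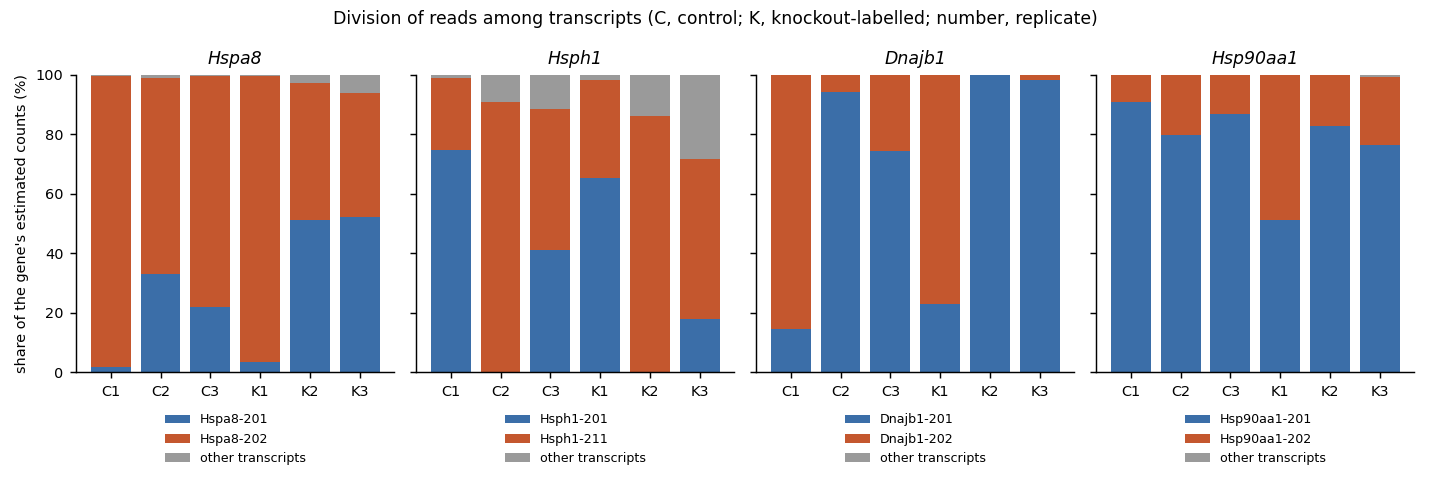
Share of each gene's estimated counts (percent, stacked to 100) on its main pair of transcripts and on all its other transcripts in the 6 libraries. Control replicate 1 (C1) and knockout-labelled replicate 1 (K1) are alike for Hspa8, Hsph1 and Dnajb1, where Dnajb1-202 holds 85.6% and 77.2%, against 0% to 25.6% in the other 4 libraries.

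Reads on transcripts annotated as retaining an intron or otherwise not coding were more frequent for some members in knockout-labelled replicates 2 and 3. For Hspa8 their share was 0.410%, 1.29% and 0.355% in the controls against 0.462%, 2.73% and 6.19% in the knockout-labelled libraries. For Hsp90ab1 it was 0.0707%, 0.0954% and 0.0556% in the controls against 0.0577%, 0.453% and 0.858% in the knockout-labelled libraries. For Hspe1 it was 0.366%, 0.200% and 0.149% in the controls against 0.184%, 0.940% and 2.26% in the knockout-labelled libraries. In each of these genes replicates 2 and 3 exceeded all controls while replicate 1 did not. The share for Hsph1 was 1.31%, 9.07% and 10.9% in the controls against 0.887%, 14.0% and 28.5% in the knockout-labelled libraries. For all protein-coding genes, only transcripts annotated as retained intron, processed transcript or nonsense-mediated decay were summed. That share was 7.46%, 3.78% and 5.36% in the controls against 7.77%, 4.80% and 4.71% in the knockout-labelled libraries. It was highest in both libraries numbered 1, where none of these members had its highest share. These shares were looked at after the levels were known and were not tested.

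Genes around the 10 in the heat shock pathway were read from 14 lists, some of which share genes, and edgeR called none of their members. Among HSF1 and its regulators, 1 of 5 tested genes was above 0 and 4 below, with a median of -0.24. Hsbp1, which binds HSF1 and restrains it, measured 116, 116 and 132 CPM in the controls against 103, 88.8 and 85.0 CPM in the knockout-labelled libraries, without overlap, at a difference of -0.39 (edgeR adjusted p = 0.84). Of 22 other genes induced by HSF1, 9 were above 0 and 13 below (median -0.11), and the groups did not overlap in 5, or 22.7%, against 9.33% of all genes. Zfand2a, a stress-induced partner of the proteasome, measured 3.19, 4.11 and 4.57 CPM in the controls against 5.95, 6.37 and 9.35 CPM in the knockout-labelled libraries, a difference of 0.87 (SE 0.28, edgeR adjusted p = 0.84). Of those 5 genes, 2 had higher values in all 3 knockout-labelled libraries, Zfand2a and Bag3, and 3 had lower ones, Hspa4, Dnaja4 and Tcp1 (named after their values were seen). Hspa4, an HSP110 relative, measured 75.5, 79.9 and 88.9 CPM in the controls against 66.3, 67.5 and 72.6 CPM in the knockout-labelled libraries (-0.24, edgeR adjusted p = 0.85). Dnaja4, a J-domain protein, was at 1.59 to 2.57 CPM in the controls and 1.08 to 1.46 CPM in the knockout-labelled libraries (-0.67, edgeR adjusted p = 0.84). Cryab, an inducible small heat shock protein, differed by -0.70 with overlapping groups (edgeR adjusted p = 0.84). The non-overlapping genes of this list thus went both ways.

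Medians of the co-chaperone and other chaperone lists ran from -0.24 to 0.02. Of 19 other HSP90 genes and co-chaperones, 16 were below 0 and 3 above (median -0.13, or 0.12 with library totals as the scale), with Sugt1, a co-chaperone that links HSP90 to its clients, at -0.35 (edgeR adjusted p = 0.84). Of 11 HSP70 co-chaperones, 4 were above 0 and 7 below (median -0.18). Hspbp1, a nucleotide exchange factor of HSP70, measured 24.5, 17.3 and 19.4 CPM in the controls against 19.6, 13.4 and 10.4 CPM in the knockout-labelled libraries, with overlap (-0.50, edgeR adjusted p = 0.84). Unlike most of its list, Bag3, which couples HSP70 to autophagy and is induced by HSF1, was at 11.1 to 18.7 CPM in the controls and at 19.5 CPM or more in each knockout-labelled library, without overlap (0.33, edgeR adjusted p = 0.85). Of 19 other J-domain genes, 10 were above 0 and 9 below (median 0.02), and of 11 other HSP70 and HSP110 genes 5 were above and 6 below (median -0.05). Of 4 tested small heat shock protein genes 1 was above 0 and 3 below (median -0.24), and of 14 other mitochondrial chaperones and proteases 6 were above and 8 below (median -0.06). With TMM scaling the HSP90 list thus lay mostly below 0, whereas the J-domain, HSP70 and mitochondrial lists were split between directions. With library totals as the scale, 15 of the 19 HSP90 genes and all 11 other HSP70 and HSP110 genes were above 0. Under both scales, 16 of the 19 and 6 of the 11 lay below the median of all genes.

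The cytosolic chaperonin, the endoplasmic reticulum chaperones and the proteasome, which fold or degrade other sets of proteins, had medians from -0.36 to -0.29. Of 14 genes of the TRiC chaperonin and prefoldin, 13 were below 0 (median -0.36), and the groups did not overlap in 4, or 28.6%. Cct8, a subunit of that ring, measured 95.9, 106 and 104 CPM in the controls against 84.3, 77.0 and 76.0 CPM in the knockout-labelled libraries (-0.37, edgeR adjusted p = 0.84). Of 18 chaperones of the endoplasmic reticulum, 17 were below 0 (median -0.29), and the groups did not overlap in 2, or 11.1%. One of these was Manf, a secreted factor induced in unfolded protein stress, at -0.62 (edgeR adjusted p = 0.84). Of 31 proteasome subunits, 29 were below 0 (median -0.29) and the groups did not overlap in 10, or 32.3%, where the share over all genes was 9.33%. Psmb5, a catalytic subunit, measured 87.1, 78.6 and 81.2 CPM in the controls against 67.7, 50.9 and 59.8 CPM in the knockout-labelled libraries (-0.47, edgeR adjusted p = 0.84). The medians of these 3 lists lay below that of the 10 heat shock protein genes, but this difference between lists was not tested. With each library's trend over length and GC content removed they were -0.21, -0.29 and -0.09. With library totals as the scale they were -0.10, -0.02 and -0.03, where the median of all genes was 0.27, and the same numbers of members, 13, 17 and 29, lay below that median.

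**Figure D5:**
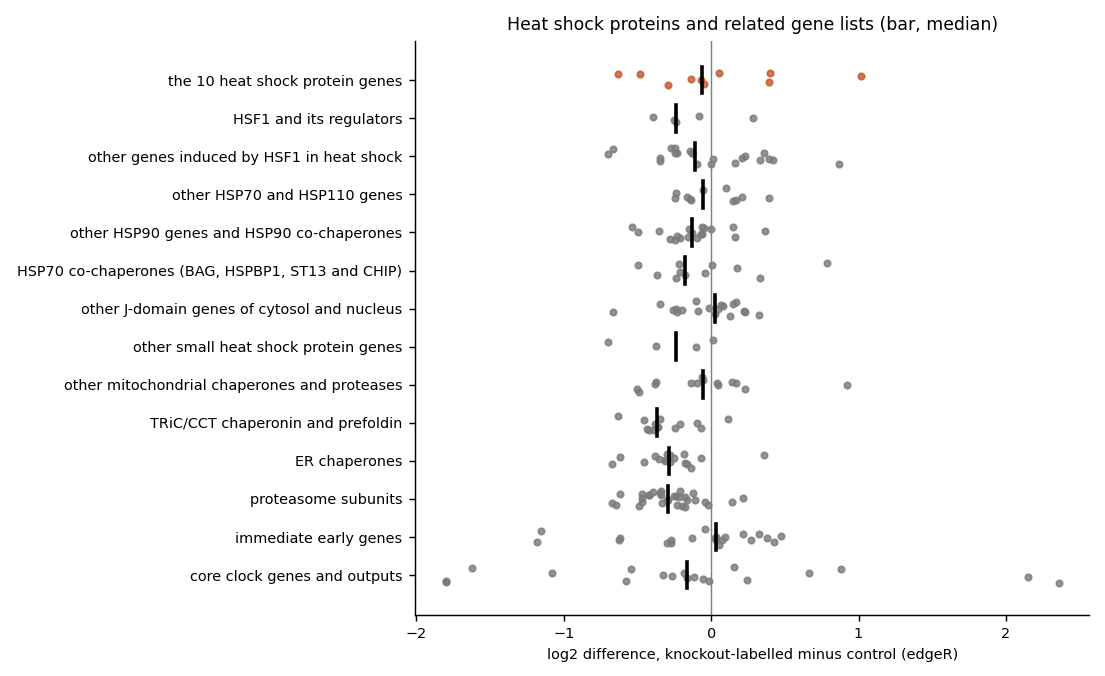
Log2 difference, knockout-labelled minus control, of each tested member (dots) of the 10 heat shock protein genes and of 13 related gene lists, with the median of each list as a black bar. The 10 genes spread from -0.63 to 1.02 around a median of -0.06, while the TRiC, endoplasmic reticulum and proteasome lists have medians of -0.36, -0.29 and -0.29.

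Lists known to respond to handling, temperature and time of day were read beside the 10 genes. Of 21 immediate early genes, which rise within minutes of stress to a tissue, 12 were above 0 and 9 below, with a median of 0.03 and no gene without overlap. Both cold-induced RNA-binding protein genes, Rbm3 at 0.37 and Cirbp at 0.25, overlapped between the groups (edgeR adjusted p = 0.85 and 0.87). The core clock genes and their outputs spread more widely: the groups did not overlap in 6 of 19, or 31.6%, against 9.33% of all genes, with a median of -0.16. Dbp, a clock output factor, measured 149, 84.8 and 75.3 CPM in the controls against 35.3, 31.3 and 22.1 CPM in the knockout-labelled libraries, a difference of -1.80 (SE 0.32, edgeR adjusted p = 0.84). Arntl, the clock activator BMAL1, measured 0.532, 2.57 and 1.05 CPM in the controls against 3.97, 8.28 and 9.05 CPM in the knockout-labelled libraries, a difference of 2.36 (SE 0.56, edgeR adjusted p = 0.84). DESeq2 called both genes. No source used here gives the hour of tissue collection, and its part in the levels of Hspa1b and the other members was not tested.

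The genes with the library pattern most like the 10 were sought by the Pearson correlation of log2 CPM with the members' mean standardised profile over the 6 libraries, which share their scaling and depth. They were Nqo1 (r = 0.984), Gstm1 (0.983), Lrrc8a (0.982), Vmp1 (0.981) and Hexa (0.981). These values are the highest found in a search over many genes, and no test goes with them. Not all of the 10 genes followed the mean profile. Hspa8, Hsp90aa1 and Hsp90ab1 were above their means in knockout-labelled replicate 1, where the profile was highest, but Hspd1 was below its mean there (-0.34). Hsph1 was highest in knockout-labelled replicate 2 (0.42), where the profile was lowest. Gstm1, a glutathione transferase, measured 1488, 970 and 2062 CPM in the controls against 2212, 819 and 931 CPM in the knockout-labelled libraries. Nqo1, a quinone reductase, measured 9.85, 8.21 and 12.4 CPM in the controls against 14.5, 7.21 and 9.10 CPM in the knockout-labelled libraries. Both were highest in knockout-labelled replicate 1 and lowest in knockout-labelled replicate 2, as the members' mean profile was, and they differed between the groups by -0.19 and 0.01 (edgeR adjusted p = 0.95 and 0.99).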

How the data were processed

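Liver poly-A RNA of 6 mice, described as 3 biological replicates per group, was sequenced as read pairs, per the labels. Each of the authors' files lists 115221 transcripts with estimated counts, not scaled to depth, and TPM, scaled within each library, with columns named as Salmon names them, per the file headers. No source used here gives the program version or the transcriptome behind them. The submitters' processing notes list GRCm38, DESeq, RSEM 1.2.8 and Bowtie2 2.2.5 without roles. For this text, 113664 transcripts were matched without version to GENCODE M21 (GRCm38), and 1557 were left out. The files' lengths equalled the annotation's for 99.2%, so coordinates are those of M21.

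The deposited estimated counts were summed per gene and rounded. Genes were filtered with filterByExpr, given TMM factors and tested two-sided with edgeR 4.0.16 (quasi-likelihood, R 4.3.3), with Benjamini-Hochberg adjustment over all tested genes. Standard errors are the absolute log2 difference divided by the square root of F. Means and SDs are of CPM, deviations of log2 CPM with a prior count of 2. The strand used in counting is not stated, so overlapping genes such as Hspd1 and Hspe1 may share reads. The tests were tested on simulated counts.

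The 10 genes, the lists and the choice of promoter motifs were made with earlier results of these data known. Named list genes are the 2 of each list with the smallest p and a mean of at least 1 CPM, not all of which are reported here. The most alike genes have a mean of at least 10 CPM. Alternatives were DESeq2 1.42.0, voom of limma 3.58.1, other scalings, other filters, a length and GC trend (loess, span 0.5), each library left out, deposited TPM and the replicate number as a block. With 3 libraries a group, no outlier rule was applied.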

Additional observations from a re-analysis of the deposited data

How the results depend on the processing

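None of the 10 genes passed the threshold under any of 20 alternative fits, and the lowest adjusted p among them was 0.15 for Hspe1 and 0.16 for Hspa1b, both with limma voom with sample weights. Hspa1b stayed above 0 in every alternative (0.93 to 1.37, and 0.78 to 1.33 with each library left out), as did Hsph1 (0.28 to 0.84, and 0.27 to 0.58). Hspe1 (-0.87 to -0.24, and -0.88 to -0.48) and Hspb1 (-1.10 to -0.06, and -0.89 to -0.14) stayed below. The members' median ranged from -0.33 to -0.00 when each library was left out, the lowest without knockout-labelled replicate 1. With library totals as the scale it was 0.20, with Hsp90aa1 at 0.11, Hsp90ab1 at 0.18 and Hspd1 at 0.23, where the median of all genes moved by 0.26. By the ratio of means of the deposited TPM, Hspa8 was at 0.03, Hsp90aa1 at 0.18, Hsp90ab1 at 0.28 and Hspd1 at 0.33, and the cause was not tested. Voom with sample weights gave -0.82 for Hspa1a and -0.03 for Dnajb1, and the length and GC trend -0.03 for Dnajb1. With each library left out in turn, Hspa8 ranged from -0.63 to -0.08, Hspa1a from -0.48 to 0.85, Hsp90aa1 from -0.39 to 0.01, Hsp90ab1 from -0.27 to 0.06 and Hspd1 from -0.26 to 0.20. Without knockout-labelled replicate 1, Hspa1a was at -0.48, Dnajb1 at -0.02 and Hspd1 at 0.10, and edgeR called 3 genes, none of the 10. Hspd1 was at 0.20 without control replicate 2, Hsp90ab1 at 0.04 without control replicate 3 and at 0.06 without knockout-labelled replicate 3, and Hsp90aa1 at 0.01 without knockout-labelled replicate 2. DESeq2 called 2 genes of the related lists, Dbp and Arntl, where edgeR called 0.

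The replicate numbers gave no consistent pairing: deviations of same-numbered libraries correlated at 0.20, 0.27 and -0.14. Control replicate 1 correlated best with knockout-labelled replicate 1, whereas control replicates 2 and 3 each correlated best with another number. The libraries numbered 1 were also alike in the transcript shares of Hspa8, Hsph1 and Dnajb1. A batch shared by same-numbered libraries was not tested. With the replicate number as a block, edgeR again called 0 genes, with Hspa1b at 1.05 and Hspe1 at -0.65. Hspa1a rested on 13 to 104 estimated counts, and its division of reads with Hspa1b is uncertain.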
